A study of Mus musculus with 24 samples.

Results

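The 10 genes described here encode protein components of the minor spliceosome and its immediate factors: Rnpc3, Snrnp25, Snrnp35, Snrnp48, Pdcd7, Zcrb1 and Zmat5 of the U11/U12 particle, and Zrsr2, Scnm1 and Ccdc84 that act with it. They were chosen by name, and all 10 were found among the 38019 gene symbols of each expression table. The series profiled total RNA of dissected mouse limb buds (strain C57/Bl6), forelimb (FL) or hindlimb (HL), at embryonic day E10.5 or E11.5. Every embryo carried U11 alleles flanked by loxP sites (U11flx/flx), the controls included. The libraries called WT came from U11flx/flx::Prrx1-Cre- embryos and the mutant libraries (Mut) from U11flx/flx::Prrx1-Cre+ embryos, in which the Prrx1 promoter drives Cre in limb mesenchyme, so the ectoderm, vessels and blood of the bud keep the gene. Stage, limb and genotype gave 8 groups of 3 libraries, 24 in all. The design text counts 3 mice of each genotype, but no label ties a library to an animal. The p-values therefore set differences against the spread between libraries, all taken as independent. Forelimb and hindlimb libraries may share animals.

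The minor spliceosome removes the rare minor introns found in a small share of genes, many of them genes of cell division and RNA handling. The U11 RNA reads the 5′ splice site and the U12 RNA the branch point, and both enter the intron as one particle that carries the 7 proteins named first. In mammals the particle is also known to regulate its own proteins: a pair of minor 5′ splice site sequences in tandem, bound by U11, lies in the Snrnp48 and Rnpc3 genes and shifts their processing toward transcripts that make less protein. In the mutant, the RNA of this particle was the target, and the question asked here of the design was what happened to the messages of the proteins.

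The tandem elements are shown because they are the known place in these genes where U11 itself acts on them. A search of GENCODE M21 transcripts (GRCm38, the same build as mm10) for 2 copies of the core TATCCTT of the minor 5′ splice site within 30 bases found them in 2 of the 10 genes, and no transcript of the other 8 held even 1 copy on its own strand. The sequences run 5′ to 3′ on the gene's own strand, with the copies of TATCCTT in capitals.
Rnpc3 element: aagtgTATCCTTtcttgTATCCTTttcggg
Snrnp48 element: agTATCCTTtttgcaaatgaTATCCTTtta
The Rnpc3 element lies on the minus strand at chr3:113607231-113607260, in the 3′ UTR of transcripts Rnpc3-201, Rnpc3-202 and Rnpc3-208 and in intron 14 of Rnpc3-203, and its copies start 12 bases apart. The Snrnp48 element lies on the plus strand at chr13:38214667-38214696, inside intron 4 of both coding transcripts and within the annotated intron-retaining transcript Snrnp48-204, and its copies start 18 bases apart. Such a tandem on the sense strand occurred in transcripts of 23 of 55341 genes (0.0416%), and on the reverse strand in 26 (0.0470%). At least 1 copy was present in 6322 genes (11.4%). Introns that no annotated transcript retains were not searched, so the absence of a match in the other 8 genes covers their transcripts only. The expression values are sums per gene symbol and do not separate the transcripts on either side of these elements.

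The targeted RNA was checked first. The U11 gene, Rnu11, stood at 1287, 1253 and 1344 rescaled TPM (TPM is a level per transcript length and per fixed library total) in WT and 237, 152 and 135 in mutant forelimb at E11.5, and fell by 2.92 ± 0.28 (SE) on the log2 scale (adjusted p = 0.000747, limma with Benjamini-Hochberg adjustment). In hindlimb at E11.5 the difference was -1.91 ± 0.28 (adjusted p = 0.0754, limma) with no overlap between groups. At E10.5 it was -1.55 ± 0.59 in forelimb and -1.47 ± 0.59 in hindlimb (adjusted p = 0.897 and 1, limma), and WT forelimb replicate 1, at 251, lay below mutant forelimb replicate 3, at 482. These same E10.5 forelimb libraries stood apart in limb identity genes: WT replicate 1 had Tbx5 at 2.25, and mutant replicate 3 had Tbx5 at 1.81 and the hindlimb genes Pitx1 at 1.53 and Hoxc10 at 3.91, while Pitx1 in the other E10.5 forelimb libraries reached at most 0.0919. At E11.5 Tbx5 was between 7.30 and 9.03 in forelimb and at most 0.370 in hindlimb, and Pitx1 was between 14.0 and 25.8 in hindlimb. All 5 limb mesenchyme markers were detected in every group. Xist was at 5 TPM or more in 6 libraries, all mutant. No WT library reached that level, and not every mutant library did, so a high Xist level was found in mutants only. In bulk tissue fewer cells of a type and less RNA per cell cannot be told apart. The deposited TPM sum to 1000000 per library, yet the level of most genes differed between libraries by a shared factor, so each library was multiplied by a factor (0.539 to 1.51) that equalised the median log2 value over 3518 broadly expressed genes. Levels are given as rescaled TPM, which is per transcript length, and changes as differences of log2(rescaled TPM + 1), a scale that understates the change of low genes.

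All 10 genes were expressed in all 24 libraries, from 0.511 to 35.9 rescaled TPM, and all 10 passed the filter of 1 TPM in at least 3 libraries. Zcrb1, which encodes the 31K protein of the particle, had the highest mean level, 27.4, with a range of 17.1 to 35.9. Rnpc3, whose 65K protein binds U12 RNA and bridges the U11 and U12 RNAs, followed at 14.2 with a range of 8.91 to 19.8. Snrnp25 (25K) averaged 11.502, Scnm1 11.2 and Zrsr2 10.9, and the order of these 3 genes varied from library to library: Snrnp25 was above Scnm1 in 13 of 24 libraries, and Scnm1 above Zrsr2 in 12. Snrnp48 (48K, which contacts the 5′ splice site) averaged 8.26 and Zmat5 (20K) 7.40. The lowest levels were those of Snrnp35 (35K) at 3.89, Pdcd7 (59K) at 2.35 and Ccdc84 at 2.08. The ranges of every pair of neighbours in this order overlapped, but within each library Zcrb1 exceeded Rnpc3, Zmat5 exceeded Snrnp35 and Snrnp35 exceeded Pdcd7 in 24 of 24.

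**Figure D1:**
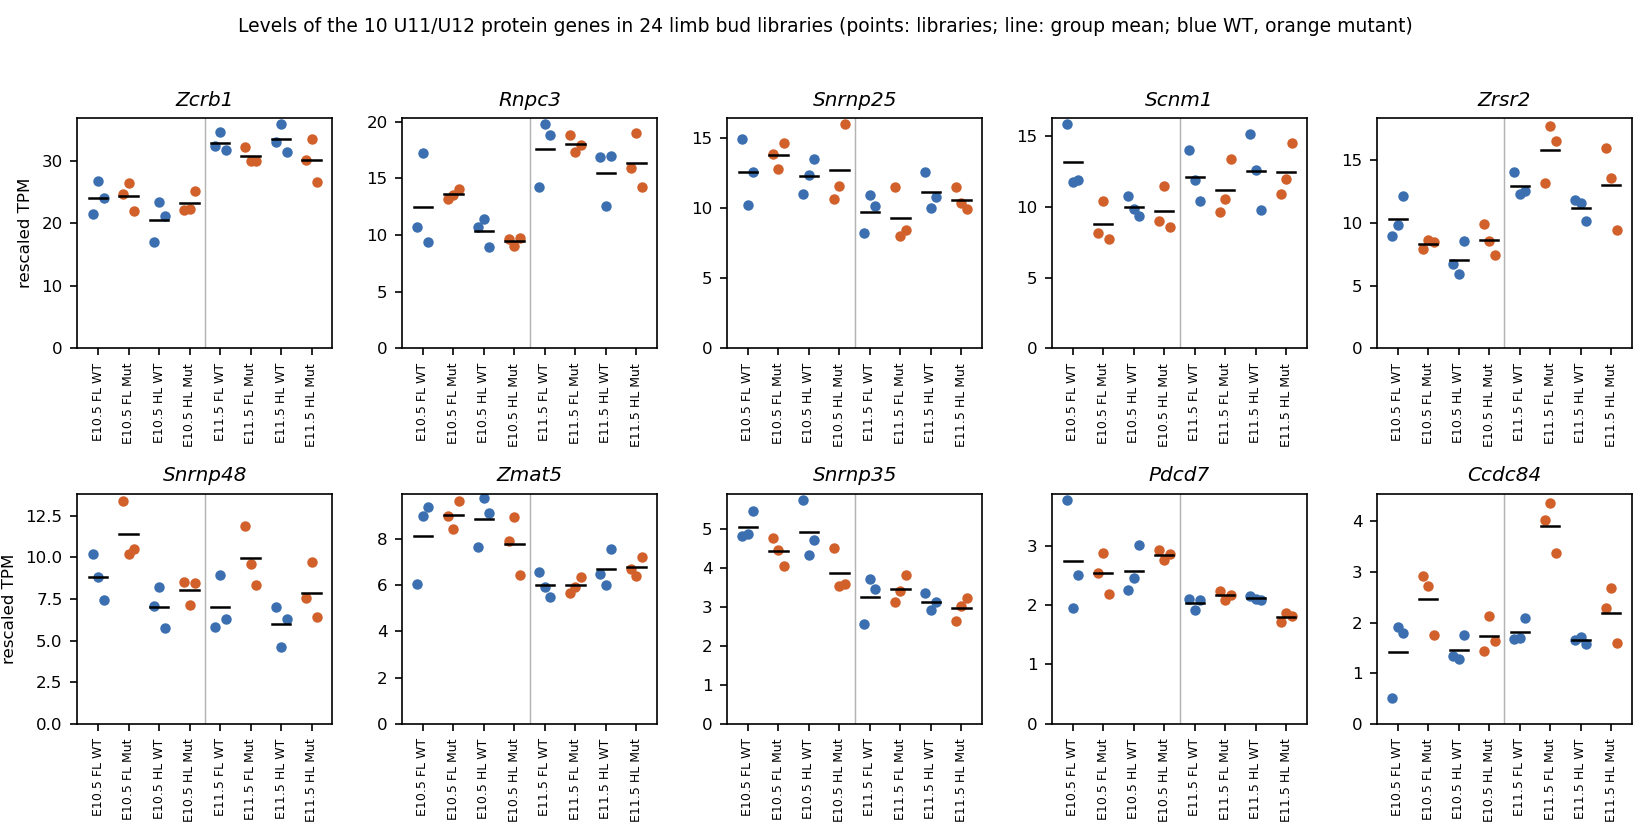
Rescaled TPM of the 10 genes (vertical axis, from 0, a separate scale for each gene) in the 8 groups (horizontal axis), with 1 point per library, a black line at the group mean, WT in blue and mutant in orange. Ccdc84 in mutant E11.5 forelimb, between 3.37 and 4.36, lies above every other group, and Zcrb1 is higher at E11.5 in all 4 kinds of sample.

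Summed over the 10 genes, the level was 98.7 ± 3.15 rescaled TPM in WT and 98.6 ± 3.15 in mutant forelimb at E10.5, and 105 ± 5.30 and 110.5 ± 1.62 at E11.5 (SD, n = 3 each). In hindlimb the sums were 85.1 ± 4.39 and 88.0 ± 1.78 at E10.5, and 103 ± 5.90 and 104 ± 8.62 at E11.5. The WT and mutant ranges of the sum overlapped in each of these pairs. Ccdc84 varied most relative to its mean, with a coefficient of variation of 42.3% over the 24 libraries against 18.1% to 28.9% for the other 9.

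In E11.5 forelimb, the comparison in which U11 RNA itself passed the test, 1 of the 10 genes passed the test between mutant and WT: Ccdc84 rose, and none fell. Ccdc84, also called CENATAC, encodes a factor of the minor tri-snRNP that is known in human cells to promote splicing of the minor introns with AT and AC ends. Its level was 1.67, 1.70 and 2.10 rescaled TPM in the WT libraries and 4.02, 4.36 and 3.37 in the mutants. Every mutant library was above every WT library, and the means, 1.82 ± 0.241 and 3.92 ± 0.501 (SD, n = 3 each), differed by a ratio of 2.15. On the log2 scale the rise was 0.80 ± 0.13 (SE; adjusted p = 0.0159, limma with Benjamini-Hochberg adjustment over 11126 genes). The background in this comparison was 180 genes called, 1.62%, of which 51, or 0.458%, were higher. The median change of the 10 genes was 0.05, beside -0.02 over all genes tested. Ccdc84 made up 1.73% ± 0.269 (SD, n = 3) of the summed level of the 10 genes in WT and 3.55% ± 0.469 in mutant, a share that does not depend on how libraries are scaled.

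Ccdc84 is at chr9:44410159-44418569 on the minus strand (GENCODE M21) and has 12 annotated transcripts, 6 of them protein-coding, 4 with a retained intron and 2 targets of nonsense-mediated decay, all summed in its TPM. It overlaps Rps25, a ribosomal protein gene on the opposite strand, over 269 bases, and the strand counted is not given in the sources used here, so reads in that stretch cannot be assigned. Rps25 itself stood at 164, 279 and 234 in WT and 235, 149 and 171 in mutant E11.5 forelimb, a difference of -0.28 ± 0.24 (adjusted p = 0.504, limma), with overlapping groups. The Ccdc84 call was lost when WT replicate 2 was left out (0.77, adjusted p = 0.0675, limma) or mutant replicate 2 (0.73, adjusted p = 0.0925), and when all 24 libraries were fitted together (0.80, adjusted p = 0.0809). Its value stayed between 0.73 and 0.88 over the 6 leave-outs. The summed level of 4 surface ectoderm markers was 36.7 to 54.1 in WT and 24.8 to 34.1 in mutant E11.5 forelimb, and that of 3 endothelial markers 7.55 to 10.04 and 10.1 to 13.9, without overlap in either case. The sums were likewise apart for 2 myogenic markers, 1.95 to 2.20 and 3.15 to 4.72, and 2 neural markers, 2.30 to 2.90 and 2.15 to 2.29, while that of 5 mesenchyme markers was 126 to 151 and 131 to 141. No marker of these lists was under 0.1 in all libraries of either of these groups. The part of these markers in the result was not tested.

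Snrnp48 and Rnpc3 carry the U11-binding elements shown above. Snrnp48 was at 5.84, 8.91 and 6.32 rescaled TPM in WT and 11.9, 9.58 and 8.35 in mutant E11.5 forelimb. The mutant mean, 9.94 ± 1.79, was above the WT mean, 7.02 ± 1.65 (SD, n = 3 each), but WT replicate 2 lay above mutant replicate 3 and the difference of 0.45 ± 0.19 did not pass (adjusted p = 0.187, limma). In E11.5 hindlimb the levels were 6.98, 4.63 and 6.32 in WT and 7.56, 9.69 and 6.39 in mutant, a difference of 0.35 ± 0.19 (adjusted p = 0.751, limma) with overlap. In E10.5 forelimb they were 10.2, 8.83 and 7.42 and 13.4, 10.2 and 10.49, where the lowest mutant library was just above the highest WT library, 10.22 against 10.18 (0.33 ± 0.16, adjusted p = 0.907, limma). In E10.5 hindlimb they were 7.04, 8.24 and 5.78 and 8.51, 7.13 and 8.47, with overlap (0.18 ± 0.16, adjusted p = 1, limma). The mutant mean was thus the higher in each of the 4 comparisons, none of which passed. Ccdc84, whose annotated transcripts hold no copy of TATCCTT, was higher in mutant in all 4 as well. Its differences were 0.57 and 0.15 at E10.5 and 0.80 and 0.26 at E11.5, forelimb then hindlimb. Of all genes tested 53.5% and 49.5% were higher in mutant at E10.5, and 46.0% and 39.0% at E11.5, in the same order. How many were higher in all 4 was not counted. Rnpc3, which holds the other element, was at 14.3, 19.8 and 18.8 in WT and 18.8, 17.3 and 17.9 in mutant E11.5 forelimb. The 3 mutant values fell inside the WT range, with a difference of 0.04 ± 0.15 (adjusted p = 0.894, limma). Over the 4 comparisons the Rnpc3 differences ran from -0.11 to 0.16 and none passed. Rnpc3 overlaps Amy1 on the same strand over 1633 bases and shares 23.3% of the 50-base stretches of its transcript Rnpc3-208 with it. Reads in shared stretches cannot be assigned by strand. Amy1 was at 0.159 on average and at most 0.884.

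**Figure D2:**
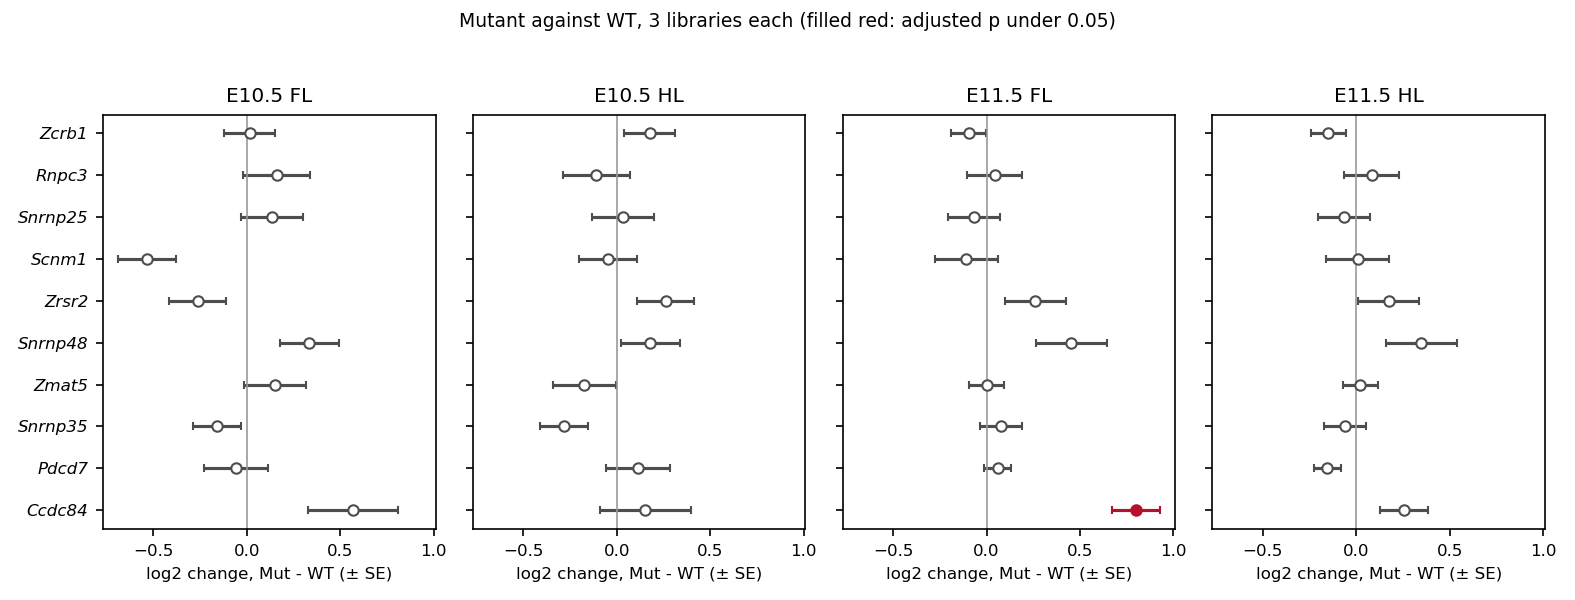
Difference in log2(rescaled TPM + 1) between mutant and WT (horizontal axis) for the 10 genes (rows, ordered by mean level) in each of the 4 comparisons of 3 against 3 libraries, with bars for 1 SE and filled red points for an adjusted p under 0.05. Ccdc84 in E11.5 forelimb is the one filled point, and the points of Snrnp48 and of Ccdc84 lie to the right of 0 in all 4 panels.

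The other proteins of the particle did not pass in E11.5 forelimb. The mutant and WT means were 9.30 and 9.73 for Snrnp25, 3.46 and 3.25 for Snrnp35, 2.16 and 2.04 for Pdcd7, 30.7 and 32.9 for Zcrb1 and 5.98 and 5.99 for Zmat5, and the mutant and WT libraries overlapped for each. The largest of these differences was that of Zcrb1, -0.10 ± 0.09 (adjusted p = 0.562, limma). Zrsr2, which recognises the 3′ splice site of minor introns and lies on the X chromosome, was at 14.1, 12.3 and 12.5 in WT and 13.2, 17.8 and 16.5 in mutant, a difference of 0.26 ± 0.16 (adjusted p = 0.355, limma). It was 0.23 with the libraries that express Xist left out, an alternative chosen after seeing the data. Its autosomal relative Zrsr1 differed by -0.11 ± 0.10 (adjusted p = 0.506, limma). Scnm1, a component of the catalytic minor spliceosome known in mice as a modifier of a sodium channel gene, was at means of 11.2 in mutant and 12.1 in WT (-0.11 ± 0.17, adjusted p = 0.736, limma). Groups without overlap were found for 1 of the 10 genes, against 25.8% of all genes tested.

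In E11.5 hindlimb none of the 10 genes passed, where 0.018% of all genes did. Ccdc84 was at 1.65, 1.72 and 1.58 in WT and 2.29, 2.69 and 1.60 in mutant hindlimb, with 2 mutant libraries above and 1 within the WT range (0.26 ± 0.13, adjusted p = 0.751, limma). Pdcd7 was the only one of the 10 whose groups did not overlap there, beside 11.6% of all genes: it was at 2.16, 2.09 and 2.09 in WT and 1.71, 1.86 and 1.81 in mutant (-0.16 ± 0.07, adjusted p = 0.751, limma). The 10 differences lay between -0.16 and 0.35, with a median of 0.01 beside -0.04 over all genes. No member had an unadjusted p under 0.05, against 6.17% of all genes. The summed level of the mesenchyme markers was 112 to 134 in mutant and 133.9 to 138 in WT, just short of overlap, and its part in these values was not tested.

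At E10.5 none of the 10 genes passed in either limb, where 0.0251% of all genes did in forelimb and 0.00836% in hindlimb. In forelimb 2 of the 10 had an unadjusted p under 0.05, beside 626 genes or 5.24% of all genes. Scnm1 was at 15.8, 11.7 and 11.9 in WT and 8.14, 10.4 and 7.73 in mutant, with every mutant library below every WT library (-0.53 ± 0.16, adjusted p = 0.786, limma). Without WT replicate 1 and mutant replicate 3, the libraries that stood apart in limb genes, the Scnm1 difference was -0.33 (adjusted p = 1), an alternative chosen after seeing the data. Ccdc84 was at 0.511, 1.92 and 1.80 in WT and 2.92, 2.73 and 1.75 in mutant, with mutant replicate 3 inside the WT range (0.57 ± 0.24, adjusted p = 0.907, limma). The lowest of all 24 Ccdc84 values, 0.511, belonged to WT replicate 1, and without that library the difference was 0.26. Groups without overlap were found for 4 of the 10 genes against 10.4% of all genes: Snrnp48 higher in mutant, and Scnm1, Snrnp35 and Zrsr2 lower. Zrsr2 was at 8.96, 9.82 and 12.2 and 7.93, 8.65 and 8.51 (-0.26 ± 0.15, adjusted p = 0.913, limma), and Snrnp35 at 4.84, 4.89 and 5.47 and 4.78, 4.46 and 4.05 (-0.16 ± 0.13, adjusted p = 0.934, limma), in WT and mutant. The summed level of 3 embryonic globins was 1752 to 2315 in WT and 3692 to 4521 in mutant E10.5 forelimb, without overlap, and that of the mesenchyme markers 115 to 146 and 62.6 to 118, and their part in these values was not tested.

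In E10.5 hindlimb the groups overlapped for all 10 genes, beside 5.75% of all genes without overlap. Ccdc84 was at 1.33, 1.29 and 1.76 in WT and 1.45, 2.13 and 1.64 in mutant (0.15 ± 0.24, adjusted p = 1, limma). The largest difference was that of Snrnp35, at 5.75, 4.33 and 4.73 in WT and 4.51, 3.53 and 3.59 in mutant (-0.28 ± 0.13, adjusted p = 1, limma). The myogenic sum was 1.44 to 3.47 in WT and 0.641 to 1.02 in mutant, and the neural sum 1.84 to 2.34 and 0.870 to 1.27, without overlap, and their part was not tested.

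Whether the mutant differences were unlike between limbs or stages was tested as a difference of differences, and none of the 10 genes passed in any of the 4 tests (0% of all genes passed for limbs at E10.5, 0.018% for limbs at E11.5, 0.0645% for stages in forelimb and 0.00807% for stages in hindlimb). For Ccdc84 the mutant difference at E11.5 was lower in hindlimb than in forelimb by -0.54 ± 0.18 (adjusted p = 0.338, limma), so its rise is not shown to differ between the limbs. Its forelimb difference at E11.5 exceeded that at E10.5 by 0.23 ± 0.28 (adjusted p = 0.748, limma). Zrsr2, lower in mutant E10.5 forelimb and higher in the other 3 comparisons, gave 0.53 ± 0.22 for hindlimb minus forelimb at E10.5 (adjusted p = 0.999, limma) and 0.53 ± 0.23 for E11.5 minus E10.5 in forelimb (adjusted p = 0.353, limma). For Snrnp48 these 4 tests gave values between -0.15 and 0.17.

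The scale of the libraries decided how many of the 10 genes were called in E11.5 forelimb. On the deposited TPM scale, where the median of all tested genes was itself 0.39 higher in mutant and 3733 genes (33.6%) passed, 7 of the 10 rose: Rnpc3, Snrnp25, Snrnp35, Snrnp48, Pdcd7, Zrsr2 and Ccdc84. There the Ccdc84 rise was 1.15 (adjusted p = 0.00188), that of Snrnp48 0.91 (adjusted p = 0.0126) and that of Zrsr2 0.75 (adjusted p = 0.0305, limma), while Rnpc3 rose by 0.54, Snrnp35 by 0.48, Pdcd7 by 0.40 and Snrnp25 by 0.40. After rescaling, the differences of the last 4 were 0.04 for Rnpc3, 0.08 for Snrnp35, 0.06 for Pdcd7 and -0.07 for Snrnp25. The median of all genes was then -0.02.

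**Figure D3:**
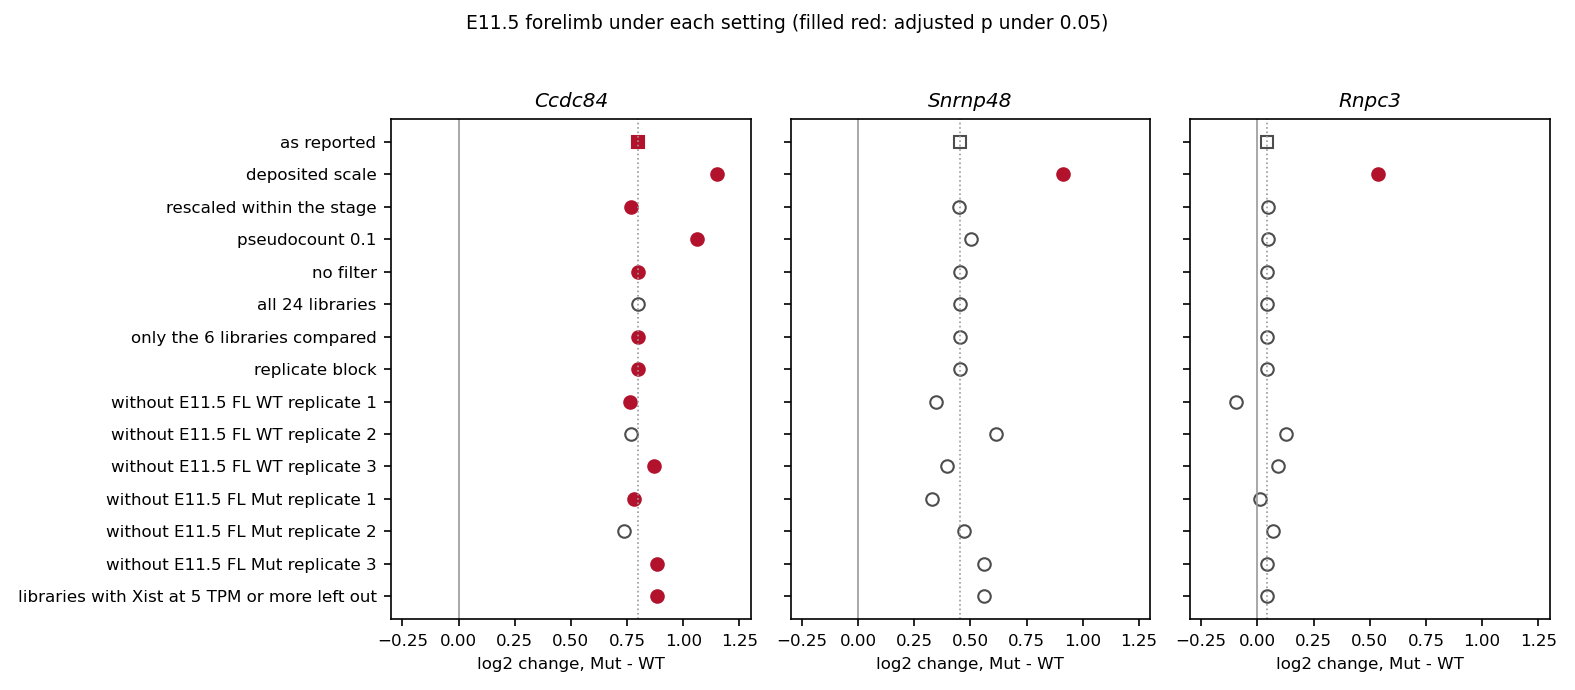
Difference in log2(TPM + pseudocount) between mutant and WT E11.5 forelimb (horizontal axis) for Ccdc84, Snrnp48 and Rnpc3 under each setting of the analysis (rows), with a square for the value as reported and filled red symbols for an adjusted p under 0.05. Ccdc84 stays between 0.73 and 1.15 with 3 open circles, and Snrnp48 and Rnpc3 are filled on the deposited scale only, among the settings shown.

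Between limbs of the same genotype and stage, none of the 10 genes passed. The shares of all genes that did were 0.125% in WT and 0.0586% in mutant at E10.5, and 0.144% and 0.386% at E11.5. Ccdc84 came nearest: in mutants at E11.5 it was lower in hindlimb than in forelimb in every library (2.20 ± 0.555 against 3.92 ± 0.501, SD, n = 3 each), a difference of -0.63 ± 0.13 (adjusted p = 0.0638, limma), and it was the one gene called (0.828% of all genes) when mutant forelimb replicate 3 was left out. On the deposited scale, where the median of all genes was -0.44, 7 of the 10 were called lower in those hindlimbs, beside 46.2% of all genes called in either direction. Of the 10 genes 3 did not overlap between those limbs, beside 21.8% of all genes: Ccdc84, Pdcd7, also lower in hindlimb (-0.18 ± 0.07, adjusted p = 0.266, limma), and Zmat5, higher there (0.15 ± 0.09, adjusted p = 0.405, limma). The summed markers were apart as well between mutant forelimb and hindlimb, at 24.8 to 34.1 and 38.7 to 47.2 for surface ectoderm, 3.15 to 4.72 and 1.65 to 2.15 for the myogenic pair, and 2.15 to 2.29 and 1.45 to 2.01 for the neural pair, and their part in the Ccdc84 difference was not tested. In WT at E11.5 the Ccdc84 difference on the rescaled values was -0.09 ± 0.13 (adjusted p = 0.899, limma). In mutants at E10.5 the levels of Rnpc3 were 13.2, 13.5 and 14.0 in forelimb and 9.62, 9.06 and 9.75 in hindlimb. Both Rnpc3 (-0.48 ± 0.18, adjusted p = 0.685, limma) and Snrnp48 (-0.45 ± 0.16, adjusted p = 0.645, limma) were lower in those hindlimbs without overlap, beside 17.2% of all genes. On the deposited scale both signs changed, to 0.06 and 0.08. The erythroid, myogenic and neural sums were each lower in those hindlimbs without overlap, with Myf5 and Sox10 under 0.1 in all 3 hindlimb libraries, and their part was not tested. In WT at E10.5 it was Zrsr2 (-0.49 ± 0.15, adjusted p = 0.307, limma) and Scnm1 (-0.36 ± 0.16, adjusted p = 0.507, limma) that were lower in hindlimb without overlap, beside 11.7% of all genes.

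Between stages 4 or 5 of the 10 genes passed in each kind of sample, close to the share of all genes that did (38.8% in WT forelimb, 40.9% in WT hindlimb, 35.4% in mutant forelimb and 35.5% in mutant hindlimb), so no stage dependence particular to these genes can be read from the counts. Stage also went with read trimming: per the labels 3 nt were trimmed from E10.5 reads and not from E11.5 reads, and the effects of the pair cannot be told apart. Summed cell type markers moved with stage too, with ranges apart in 1 of 7 lists in WT forelimb and in 4 of 7 in each of the other kinds of sample. Surface ectoderm was higher at E11.5 in WT forelimb (19.1 to 23.0 and then 36.7 to 54.1), WT hindlimb (18.4 to 21.1 and 21.98 to 39.7) and mutant hindlimb (10.7 to 29.0 and 38.7 to 47.2). Mesenchyme was higher in WT hindlimb (71.6 to 131.5 and 133.9 to 138) and mutant forelimb (62.6 to 118 and 131 to 141), and endothelium lower in WT hindlimb (12.5 to 15.8 and 6.18 to 11.9). The part of these markers in the stage differences was not tested. On the rescaled values Zcrb1 rose at E11.5 in all 4. In WT forelimb it was at 21.5, 26.8 and 23.99 at E10.5 and 32.4, 34.5 and 31.7 at E11.5 (0.44 ± 0.11, adjusted p = 0.00600, limma), and in WT hindlimb at 17.1, 23.5 and 21.2 and 33.0, 35.9 and 31.3 (0.68 ± 0.11, adjusted p = 0.000193, limma). Neither pair overlapped, as for 44.5% and 50.2% of all genes. In mutants it rose by 0.33 ± 0.11 in forelimb (adjusted p = 0.0323, limma) and 0.36 ± 0.11 in hindlimb (adjusted p = 0.0208, limma).

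Rnpc3 rose with stage in 3 of the 4. In WT hindlimb it was at 10.7, 11.4 and 8.91 at E10.5 and 16.8, 12.6 and 17.0 at E11.5 without overlap (0.53 ± 0.17, adjusted p = 0.0171, limma), in WT forelimb at 10.7, 17.2 and 9.40 and 14.3, 19.8 and 18.8 with overlap (0.50 ± 0.17, adjusted p = 0.0248, limma), and in mutant hindlimb it rose by 0.72 ± 0.17 (adjusted p = 0.00307, limma). In mutant forelimb the difference was 0.38 ± 0.17 (adjusted p = 0.0827, limma). Zrsr2 also rose in 3 of the 4, by 0.84 ± 0.16 in mutant forelimb (adjusted p = 0.00101, limma), 0.61 ± 0.16 in WT hindlimb (adjusted p = 0.00609, limma) and 0.52 ± 0.16 in mutant hindlimb (adjusted p = 0.0179, limma). In WT forelimb Zrsr2 was at 10.3 ± 1.65 and 13.0 ± 0.995 (0.31 ± 0.16, adjusted p = 0.131, limma).

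Snrnp35, whose protein is the U11 counterpart of a U1 protein of the major spliceosome, fell at E11.5 in both WT limbs. It was at 4.84, 4.89 and 5.47 at E10.5 and 2.57, 3.71 and 3.47 at E11.5 in WT forelimb (-0.52 ± 0.12, adjusted p = 0.00223, limma), and at 3.36, 2.92 and 3.14 at E11.5 in WT hindlimb (-0.51 ± 0.12, adjusted p = 0.00210, limma), below every E10.5 library of its limb. In mutants the differences were -0.28 ± 0.12 and -0.29 ± 0.12 (adjusted p = 0.0638 and 0.0569, limma). Zmat5 fell in 3 of the 4, by 0.37 ± 0.13 in WT forelimb (adjusted p = 0.0367), 0.36 ± 0.13 in WT hindlimb (adjusted p = 0.0405) and 0.52 ± 0.13 in mutant forelimb (adjusted p = 0.00673, limma). Snrnp25 fell by 0.53 ± 0.16 in mutant forelimb (adjusted p = 0.0137, limma) and Pdcd7 by 0.46 ± 0.13 in mutant hindlimb (adjusted p = 0.00868, limma), 1 comparison each. Snrnp48, Ccdc84 and Scnm1 passed in none on the rescaled values. Leaving out each of the 6 libraries in turn kept the calls of Zcrb1 and Snrnp35 in both WT limbs, Zrsr2 in WT hindlimb and mutant forelimb, Zmat5 in mutant forelimb, and Rnpc3 and Pdcd7 in mutant hindlimb. The other calls were lost in 2 to 5 of the 6. Rnpc3 in WT forelimb did not pass without replicate 1 (0.42, adjusted p = 0.0872, limma) or replicate 3 (0.34) of E10.5 or replicate 2 (0.42) or 3 (0.45) of E11.5, and in WT hindlimb without E10.5 replicate 3 (0.44) or E11.5 replicate 1 (0.47) or 3 (0.46). Zcrb1 in mutant forelimb did not pass without E10.5 replicate 1 (0.34) or 3 (0.26) or any of the E11.5 replicates (0.29 to 0.34), and in mutant hindlimb without E10.5 replicate 1 (0.32) or 2 (0.33) or E11.5 replicate 1 (0.35) or 2 (0.28). Zmat5 did not pass in WT forelimb without E10.5 or E11.5 replicate 2 or 3 (-0.36 to -0.27), nor in WT hindlimb without E10.5 replicate 2 or 3 or E11.5 replicate 1 or 2 (-0.34 to -0.29). Snrnp25 in mutant forelimb did not pass without E11.5 replicate 2 (-0.44) or 3 (-0.47), and Zrsr2 in mutant hindlimb without E10.5 replicate 3 (0.43) or E11.5 replicate 1 (0.36) or 2 (0.48). Without WT forelimb E10.5 replicate 2, Snrnp25 (-0.46) and Pdcd7 (-0.43) passed as well.

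On the deposited scale the median of all genes was itself lower at E11.5, by -0.27 in WT forelimb, -0.42 in WT hindlimb and -0.61 in mutant hindlimb, and higher by 0.18 in mutant forelimb. There Zcrb1 and Rnpc3 passed in no comparison and Zrsr2 in mutant forelimb alone, the one call among the 10 in that comparison (8.23% of all genes were called). In the other 3 comparisons every call among the 10 was a fall: 4 genes in WT forelimb (22% of all genes called), 5 in WT hindlimb (34.5%) and 5 in mutant hindlimb (50.9%), in place of 2 rises and 2 falls, 3 and 2, and 3 and 1. Snrnp25 fell in all 3, by 0.77, 0.74 and 1.02, and so did Snrnp48, by 0.72 (adjusted p = 0.0247), 0.78 (adjusted p = 0.0105) and 0.80 (adjusted p = 0.00558, limma), neither of which passed there on the rescaled values. Snrnp35 and Zmat5 fell in all 3 as well, and Pdcd7 in both hindlimbs. The rises named above are therefore rises relative to the median gene, and on the deposited scale none of them passed apart from that of Zrsr2 in mutant forelimb.

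**Figure D4:**
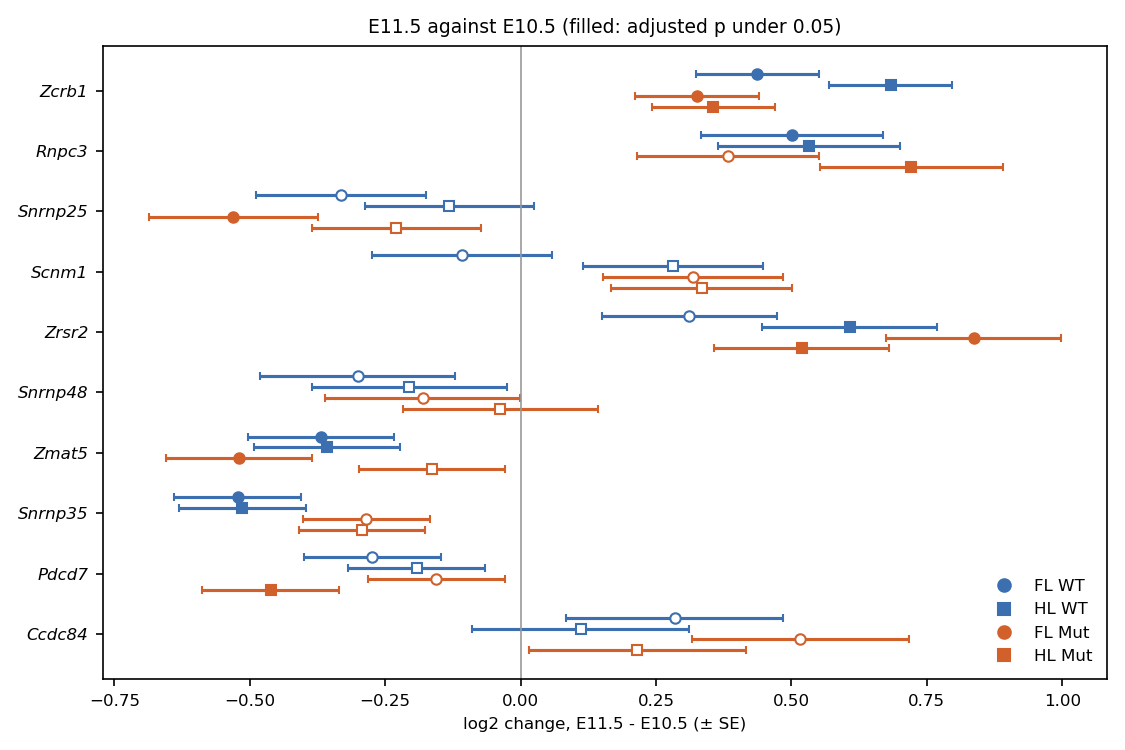
Difference in log2(rescaled TPM + 1) between E11.5 and E10.5 (horizontal axis) for the 10 genes (rows), with circles for forelimb, squares for hindlimb, blue for WT, orange for mutant, bars for 1 SE and filled symbols for an adjusted p under 0.05. The 4 symbols of Zcrb1 are filled to the right of 0, and those of Snrnp35 and Zmat5 lie to the left.

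Other spliceosome genes gave the comparison for the particle. On the rescaled values, in none of 6 lists (6 other minor spliceosome factors, 7 SF3b proteins shared with the major spliceosome, 7 Sm core proteins, 15 tri-snRNP proteins, 10 U1 and U2 proteins of the major spliceosome only, and 9 SMN complex proteins that assemble these particles) did a gene rise or fall between mutant and WT in any limb or stage; at E11.5, 5 of the 6 other minor factors were tested. Of all genes 1.62% were called in E11.5 forelimb, 0.018% in E11.5 hindlimb, 0.0251% in E10.5 forelimb and 0.00836% in E10.5 hindlimb. With shares this low, a lack of calls in lists of this size does not set them apart. In E11.5 forelimb the median difference was -0.17 for the other minor factors, 0.18 for SF3b, 0.07 for Sm, 0.24 for the tri-snRNP, 0.27 for the major-only U1 and U2 proteins and 0.10 for the SMN complex, beside 0.05 for the 10 genes and -0.02 for all. On the deposited scale, where 33.6% of all genes passed and their median was 0.39, the genes that rose there numbered 14 of 15 for the tri-snRNP, 9 of 10 for the major-only proteins, 5 of 7 each for SF3b and Sm, 6 of 9 for the SMN complex and 0 of 5 for the other minor factors (limma), beside 7 of the 10 U11/U12 protein genes. The median of the other minor factors was 0.26 on that scale, so its sign depends on the scaling. In the other limbs and stages no gene of these lists passed on the deposited scale either. Of all genes 0.0251% passed there in E10.5 forelimb, 0.00836% in E10.5 hindlimb and 0.036% in E11.5 hindlimb. In E11.5 forelimb on the rescaled values, 10 of the 15 tri-snRNP genes had an unadjusted p under 0.05 (limma). The same held for 5 of 10 major-only genes, 4 of 7 SF3b genes, 2 of 7 Sm genes and 1 of 9 SMN complex genes. It also held for 1 of 5 other minor factors and 2 of the 10 U11/U12 protein genes, beside 22.5% of all genes. The differences that follow are from the same comparison and scale. The 2 most abundant genes of each list differed by -0.23 (Cript) and -0.17 (Rbm41), -0.21 (Sf3b1) and 0.18 (Phf5a), -0.36 (Snrpe) and 0.11 (Snrpb), 0.13 (Nhp2l1) and -0.05 (Snrnp27), 0.29 (Snrnp70) and 0.41 (U2af2), and 0.13 (Strap) and 0.12 (Gemin7). The lowest adjusted p in these lists was that of U2af2, which recognises the 3′ splice site of major introns, at 0.41 ± 0.10 (adjusted p = 0.0608, limma).

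**Figure D5:**
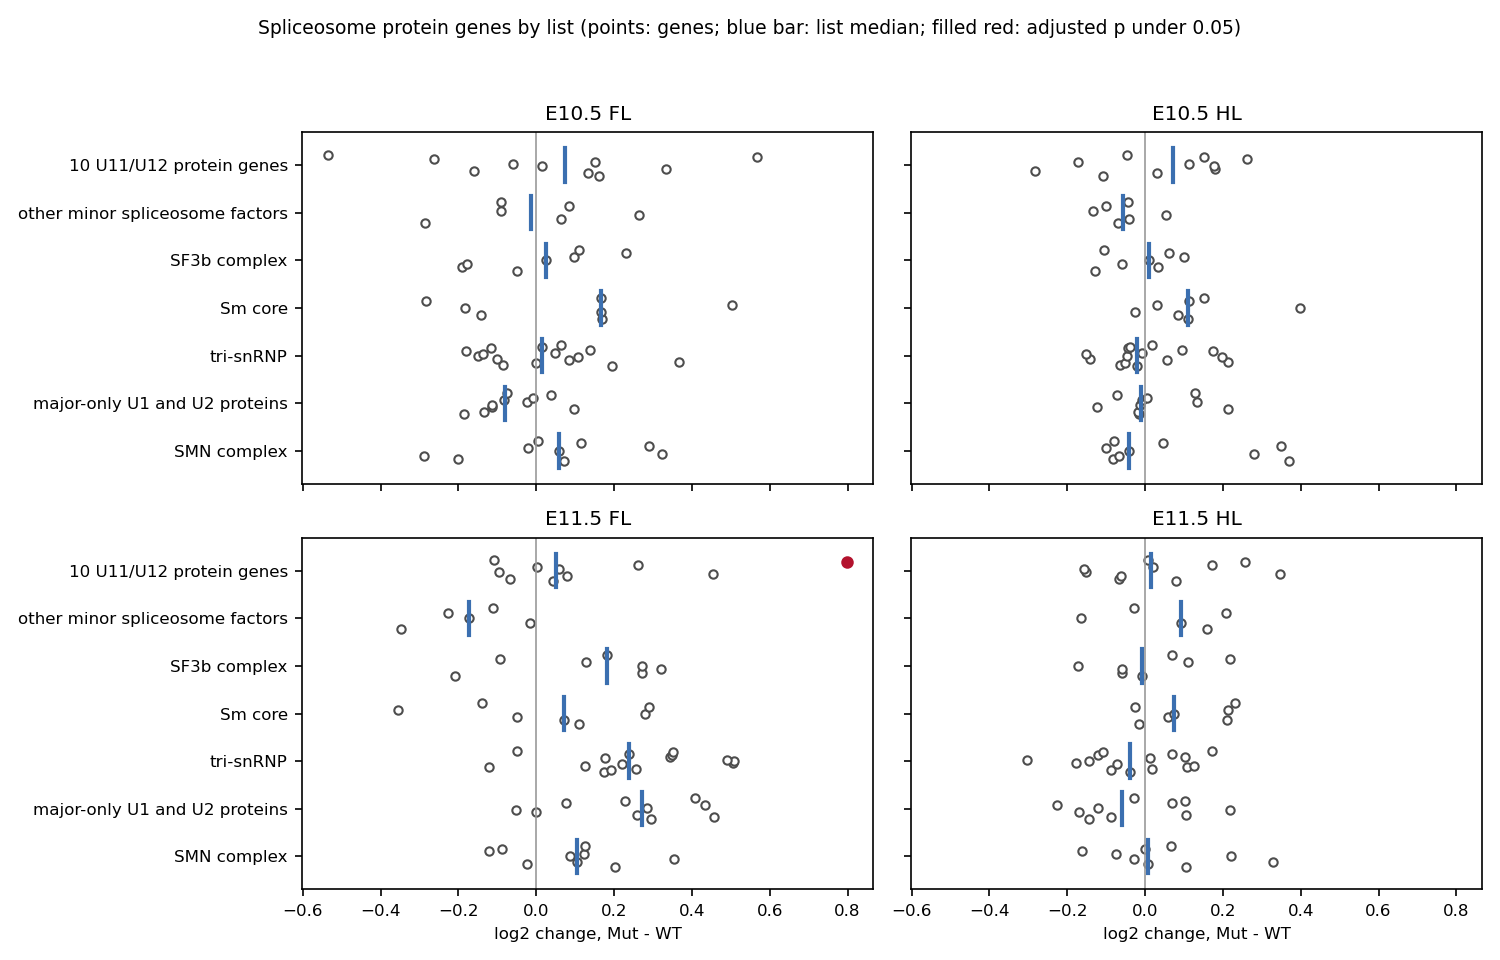
Difference in log2(rescaled TPM + 1) between mutant and WT (horizontal axis) for each gene of the 10 U11/U12 protein genes and of 6 other spliceosome lists (rows) in the 4 comparisons, with a blue bar at each list's median and filled red points for an adjusted p under 0.05. Ccdc84 in E11.5 forelimb, at 0.80, is the one filled point in the 4 panels.

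Across libraries the 10 genes did not move as one. The closest pair over 24 libraries was Rnpc3 and Zcrb1 (Pearson r = 0.763 on log2 values), but within the 12 libraries of a stage r was 0.440 at E10.5 and 0.0789 at E11.5, so the pooled value rests on the stages. The most opposed pair was Snrnp35 and Zcrb1 (r = -0.772 pooled, -0.349 at E10.5 and -0.106 at E11.5). Snrnp48 and Rnpc3, the carriers of the tandem elements, had r = 0.189 pooled, 0.624 at E10.5 and 0.765 at E11.5. Snrnp48 and Ccdc84 had r = 0.354 pooled, 0.210 at E10.5 and 0.761 at E11.5. Zrsr2 and Ccdc84, whose annotated transcripts hold no element, had r = 0.544 pooled, 0.110 at E10.5 and 0.724 at E11.5. A high r at E11.5 was thus not limited to carriers of the elements. Among 5938 genes of at least 5 rescaled TPM on average, the patterns most like that of Ccdc84 over the 24 libraries were those of Ccng1 (r = 0.746; 0.347 at E10.5 and 0.903 at E11.5), Bloc1s2 (0.732; 0.702 and 0.748) and Cpne1 (0.687; 0.405 and 0.825). These correlations describe libraries that share tissue, scaling and genotype.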

How the data were processed

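The authors sequenced total RNA of dissected limb buds, extracted in Trizol, from stranded libraries. Per the submitters' processing notes, reads were aligned with HISAT2 to mm10; which quantifier, annotation and strand were used is not given in the sources used here. The authors deposited 1 TPM value for each gene symbol; every one of the 24 libraries sums to 1000000. TPM values keep no read depth, so no counting interval can be given. Per the labels, 3 nt were trimmed from the reads of E10.5 libraries.

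Each library was rescaled to an equal median log2 TPM over the 3518 genes with at least 5 TPM in all 24. Linear models with a variance trend (limma 3.58.1, R 4.3.3) were fitted to log2(rescaled TPM + 1) of all genes with at least 1 deposited TPM in 3 libraries of the fit: the 12 libraries of a stage, or all 24 for stage comparisons. Two-sided p-values were adjusted by Benjamini-Hochberg over all genes of a fit, with a threshold of 0.05. The 10 genes and the comparison lists were chosen by name, with earlier results of these data known. The text names all 10 genes, Rnu11, the 2 most abundant genes of each other list (no gene of these lists passed) and the 3 genes nearest in pattern to Ccdc84; Rps25, Zrsr1, Xist and the limb markers were added as checks, the overlap with Rps25 having been found in the annotation after the Ccdc84 result. Alternatives were the deposited scale, rescaling within a stage, a pseudocount of 0.1, no filter, all 24 libraries or only the 6 compared, a block for the replicate number, and leaving out each library in turn. No pair of libraries was identical (r between 0.959 and 0.989 within groups). Same-numbered libraries deviated together with every r over 0.1 in 1 of 12 comparisons alone, hindlimb with forelimb in E10.5 mutants (0.149 to 0.272 over 3 pairs), where no member passed with or without the block. Gene positions, transcripts and sequences come from GENCODE M21 (GRCm38). Splicing and intron retention were not analysed here.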

Additional observations from a re-analysis of the deposited data

How the results depend on the processing

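The number of the 10 genes called depended most on the scale of the libraries. On the deposited scale it was 7 in place of 1 for mutant against WT in E11.5 forelimb, 7 in place of 0 for hindlimb against forelimb in E11.5 mutants (all lower, with the median of all genes at -0.44 and 46.2% of genes called), and 1 in place of 4 between stages in mutant forelimb. On that scale 3 of the 10 mutant differences in E11.5 forelimb changed sign: Snrnp25 to 0.40, Zcrb1 to 0.41 and Scnm1 to 0.37. In the other mutant comparisons 4 changed sign in E10.5 forelimb and 2 in each hindlimb, none of them called on either scale. Between limbs 5 did in E10.5 WT, 7 in E10.5 mutants, 1 in E11.5 WT and 3 in E11.5 mutants, none of them called. Between stages 3 did in WT forelimb, 3 in WT hindlimb, 2 in mutant forelimb and 5 in mutant hindlimb, among them the called rises of Zcrb1 in WT forelimb (-0.030), Rnpc3 in WT hindlimb (-0.075), and Rnpc3 (-0.073), Zcrb1 (-0.47) and Zrsr2 (-0.27) in mutant hindlimb. Fitting all 24 libraries left 0 calls in E11.5 forelimb, and using no filter left 2 in place of 4 between stages in WT forelimb. In the fits as reported, 1.62% and 38.8% of all genes were called in these comparisons. The shares under the changed settings are not given here, so the lost calls cannot be read as particular to the 10 genes. Calls between stages on the deposited scale were all falls save Zrsr2 in mutant forelimb, with Snrnp25 and Snrnp48 added in the other 3. The cause of these changes was not tested.

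With each library left out in turn, the count ran from 0 to 1 for mutant against WT in E11.5 forelimb and from 0 to 1 for hindlimb against forelimb in E11.5 mutants. Of all genes, 27 to 397 and 12 to 91 were called in these leave-outs. Between stages it ran from 2 to 5 in WT forelimb, 3 to 5 in WT hindlimb, 2 to 4 in mutant forelimb and 2 to 4 in mutant hindlimb. The calls among all genes ran from 3659 to 4706, 3885 to 4830, 2796 to 3806 and 2833 to 4257 in the same order. The remaining counts of calls among the 10 genes stayed at 0 in every leave-out, where at most 19 of all genes were called.

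With the replicate number as a block, Ccdc84 in E11.5 forelimb was again called (0.80, adjusted p = 0.0281, limma), with 94 genes called in all in place of 180. Between stages in mutant forelimb 5 of the 10 genes were called with the block in place of 4, Ccdc84 being added. Its adjusted p was 0.0494 with the block and 0.0513 without (limma), on either side of the threshold. Of all genes 35.4% were called in that comparison without the block. It changed no other count of calls among the 10 genes. With TPM alone the depth behind low values such as those of Ccdc84 is unknown, 3 libraries a group limit the precision, and a p above the threshold does not show that levels were equal.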
